A study of Homo sapiens with 3 samples.

Results

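The replication-dependent histone genes are the multicopy genes that supply linker histone H1 and the core histones H2A, H2B, H3 and H4 while DNA is being copied. They were taken as every row of the gene count table whose Ensembl ID belongs to a protein-coding gene named H1-1 to H1-6, H2AC, H2BC, H3C or H4C with a number (formerly HIST1H, HIST2H, HIST3H and HIST4H4). The annotation holds 69 such genes and 65 of them had a row, among 58381 rows in all. H2AC18, H2AC19, H3C2 and H3C3 had no row under their present IDs and were not analysed here. The 65 genes comprise 6 of H1, 15 of H2A, 18 of H2B, 11 of H3 and 15 of H4.

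The cells were T24, an established human bladder urothelial carcinoma line, and the study asked which genes depend on HDAC6, a mainly cytoplasmic deacetylase of tubulin, in irradiated cells. There was 1 library per condition. Ctrl was the unirradiated control, RT was the same control after ionizing radiation (10 Gy from a 137Cs source according to the labels), and RT + shHDAC6 carried an shRNA against HDAC6 and was irradiated. The protocol in the labels describes lentiviral infection with either the HDAC6 shRNA vector or a control pLKO.1 vector, both followed by puromycin selection. The control libraries are labelled only as control, and the paper calls the irradiated comparator parental T24 cells. Whether the controls carried the vector is therefore not settled. Infection and selection may differ between RT + shHDAC6 and the other libraries along with HDAC6. The time between irradiation and harvest is not given in the sources used here, only 1 shRNA was used, and no unirradiated knockdown library was analysed here.

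The libraries held 41811165 (Ctrl), 35959265 (RT) and 35424086 (RT + shHDAC6) counts, so 3 counts corresponded to between 0.0718 and 0.0847 CPM (counts scaled to a common library total). For HDAC6 itself the Ctrl library held 3098 counts, the RT library 2383 and the knockdown library 2170. Its log2 ratio was -0.20 (95% counting interval -0.28 to -0.11) in RT + shHDAC6 against RT, that is, 87.2% of the RT level. The label of the knockdown library is thus only weakly visible in these counts of its target. By qPCR and Western blotting, the paper reported lower HDAC6 mRNA and protein in shHDAC6 T24 cells than in control cells. All 6 epithelial keratin and adhesion markers and all 3 mesenchymal markers (VIM, CDH2 and FN1) were above 3 counts in each library. Of 6 markers of differentiated urothelium, the uroplakins UPK1B, UPK2 and UPK3A did not exceed 3 counts in any library. The uroplakin UPK1A held 18 in Ctrl and 2 in either irradiated library. GATA3 (Ctrl 2320, RT 1423, knockdown library 709) and PPARG (1298, 650 and 352 in the same order) were above 3 counts throughout. With 1 library per condition no test between conditions is possible. Each ratio below is the log2 ratio of counts after trimmed-mean (TMM) scaling, and its 95% Clopper-Pearson interval covers counting error only, not the variation between cultures. The 3 comparisons share libraries: a low value in RT alone lowers the first and raises the second.

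Replication-dependent histone mRNAs are the class of metazoan mRNA that normally ends without a poly(A) tail. Their 3′ end is formed by a cut just after a conserved stem-loop, which is bound by the stem-loop-binding protein SLBP, and the mRNAs accumulate in S phase and decay quickly when DNA synthesis stops. The labels name an mRNA library kit, of which poly(A) selection is a usual step, and the methods a strand-specific RNA kit, and whether poly(A) RNA was selected is not stated. Transcripts of these genes that read through the stem-loop to a later poly(A) site are known as well. The counts therefore need not measure the whole pool of histone mRNA. In bulk samples, a smaller number of cells in S phase and less histone RNA per cell cannot be told apart.

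The stem-loop was found within 120 bases after the stop codon in 62 of the 65 genes, by searching for GG, 2 free bases, CTTT, 2 free bases, AG, 2 free bases and CC. It was not matched in H2BC10, H3C6 and H4C13. Shown here are the stem-loops of 6 of the genes named below, in the sense of the mRNA and in DNA letters, from the GRCh38 genome. The 16 bases of the stem-loop are in capitals, with 5 flanking bases on each side.
H2AC6, chr6:26124669-26124684, plus strand: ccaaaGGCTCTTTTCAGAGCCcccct
H1-2, chr6:26055744-26055759, minus strand: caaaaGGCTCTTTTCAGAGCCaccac
H2BC12, chr6:27146366-27146381, minus strand: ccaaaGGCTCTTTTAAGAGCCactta
H2AC11, chr6:27133515-27133530, plus strand: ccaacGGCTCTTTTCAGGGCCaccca
H4C8, chr6:26285131-26285146, minus strand: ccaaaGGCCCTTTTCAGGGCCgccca
H4C9, chr6:27139654-27139669, plus strand: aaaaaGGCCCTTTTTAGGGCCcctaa

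The form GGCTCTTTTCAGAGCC, as in H2AC6 and H1-2, was found in 36 genes of H1, H2A, H2B and H3. The form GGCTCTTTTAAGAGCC of H2BC12 was found in 9. The forms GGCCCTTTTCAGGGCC of H4C8 (10 genes) and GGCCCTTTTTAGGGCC of H4C9 (4 genes) were found in H4 alone, so every matched H4 gene carried the pair of C bases after the opening GG. The stem-loop therefore set H4 apart from the other classes by sequence. H2AC11, H2AC15 and H2AC20 each carried a form found in no other gene of the 65.

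Summed over all 65 genes, Ctrl held 5636 histone counts, RT 2172 and RT + shHDAC6 4248. From here on, 3 values in a row are for Ctrl, RT and RT + shHDAC6 in this order. The sums were 134.8 (95% interval 131.3 to 138.4), 60.4 (57.9 to 63.0) and 119.9 (116.3 to 123.6) CPM. RT was the low library, and the other two lay close to each other. The log2 ratio of the sums was -0.94 (-1.01 to -0.87) in RT against Ctrl, 0.91 (0.83 to 0.98) in RT + shHDAC6 against RT, and -0.035 (-0.093 to 0.023) in RT + shHDAC6 against Ctrl. The sum uses every gene whatever its level. How reads that fit several near-identical copies were treated is not stated, so the sum may lack such reads.

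Of the 65 genes, 8 had no count in any library: H1-1, H2AC1, H2AC7, H2BC1, H3C4, H3C14, H4C6 and H4C7. For H3C14, which shares 99.1% of its 75-base windows with other genes of the family, and for H3C4 and H2AC7, which overlap another gene on the same strand over 96.6% and 85.3% of their exon length, a listed 0 does not bound the level, since their reads may have been lost or assigned elsewhere. Another 23 had some counts but a mean below 10 over the 3 libraries, and together with the 8 they held only 117, 44 and 80 counts. The other 34 genes passed the minimum mean of 10 counts and are compared one by one: 4 of H1, 6 of H2A, 14 of H2B, 4 of H3 and 6 of H4. A change of at least 2-fold is called higher or lower below.

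**Figure D1:**
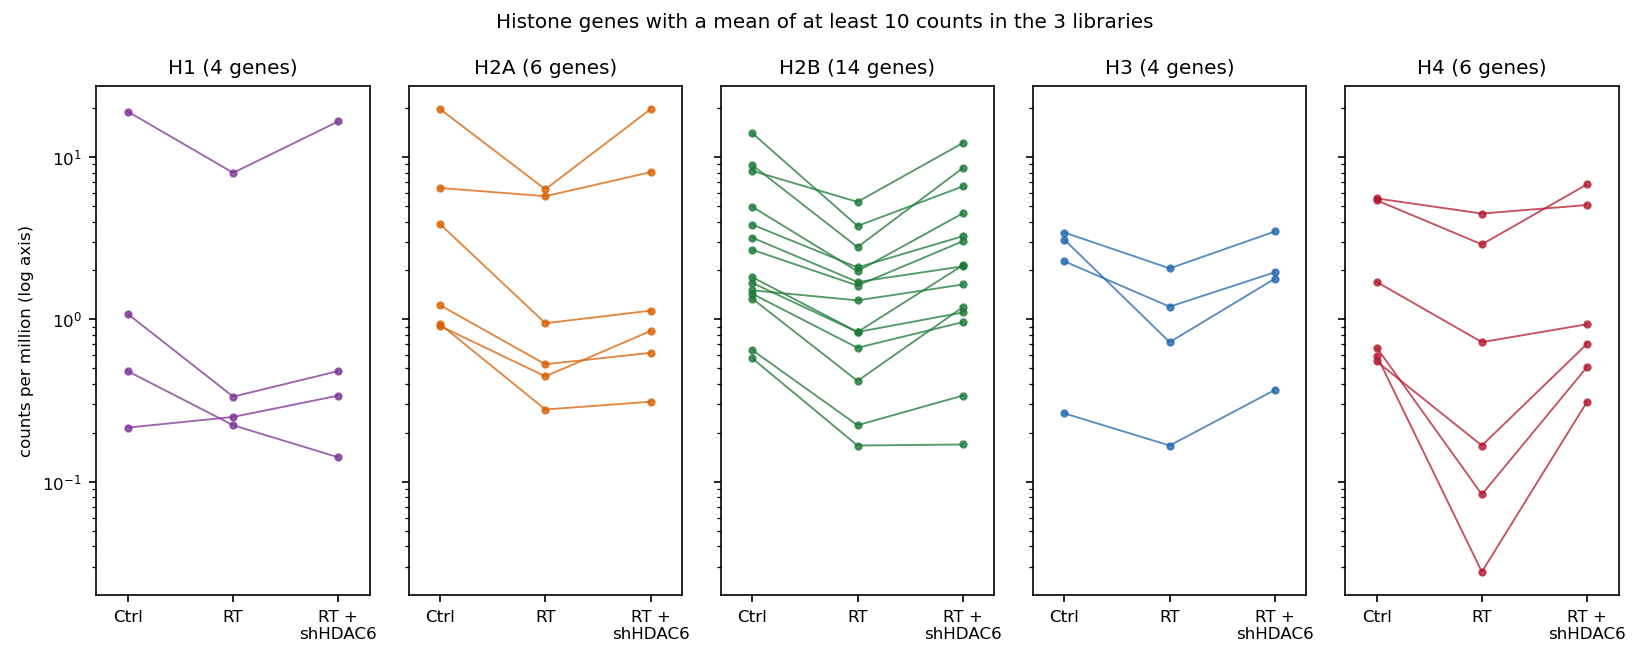
CPM (log axis) of the 34 histone genes with a mean of at least 10 counts, by histone class, in the Ctrl, RT and RT + shHDAC6 libraries; each line joins the 3 values of 1 gene. Most lines dip in RT, as 31 of the 34 genes had a ratio below 0 against Ctrl and 32 had a ratio above 0 in RT + shHDAC6 against RT.

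In RT against Ctrl, 31 of the 34 genes were lower and 3 were higher. Of all 18761 genes with a mean of at least 10 counts, 52.0% were lower. The median log2 ratio of the histone genes was -0.95 beside -0.028 over all these genes. The interval of 27 genes lay wholly below 0, a count for which no share over all genes was computed. At least 2-fold lower were 16 of 34 (47.1%), where 6.36% of all genes were, and 0 were at least 2-fold higher, where 4.62% of all genes were. Genes of low count leaned downward in this comparison as a whole: of the 6648 genes with a mean of 10 to under 100 counts, 15.2% were at least 2-fold lower, against 1.49% of the 12113 genes with a mean of at least 100. Among the histone genes, 11 of 23 in the lower range and 5 of 11 in the upper range were at least 2-fold lower.

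In RT + shHDAC6 against RT, 32 of the 34 genes were higher, where 49.1% of all genes were. The median log2 ratio of the histone genes was 0.65 beside -0.0066 over all genes. The interval of 18 genes lay wholly above 0, again with no share over all genes computed. At least 2-fold higher were 12 of 34 (35.3%), where 3.35% of all genes were, and 0 were at least 2-fold lower, where 4.26% of all genes were. In the range of at least 100 counts, 5 of 11 histone genes were at least 2-fold higher, against 0.826% of all genes there. In the lower range it was 7 of 23, against 7.94%.

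Compared with Ctrl, 13 genes were higher and 21 lower in RT + shHDAC6, where 48.2% of all genes were higher and 51.8% lower. The median log2 ratio of the histone genes was -0.077 beside -0.026 over all genes. At least 2-fold lower were 5 of 34, where 7.82% of all genes were, and 0 were at least 2-fold higher, where 4.44% of all genes were. The 5 were H1-4, H1-5, H2AC11, H2AC15 and H2BC14, all with a mean below 100 counts. In that range 15.8% of all genes were at least 2-fold lower.

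**Figure D2:**
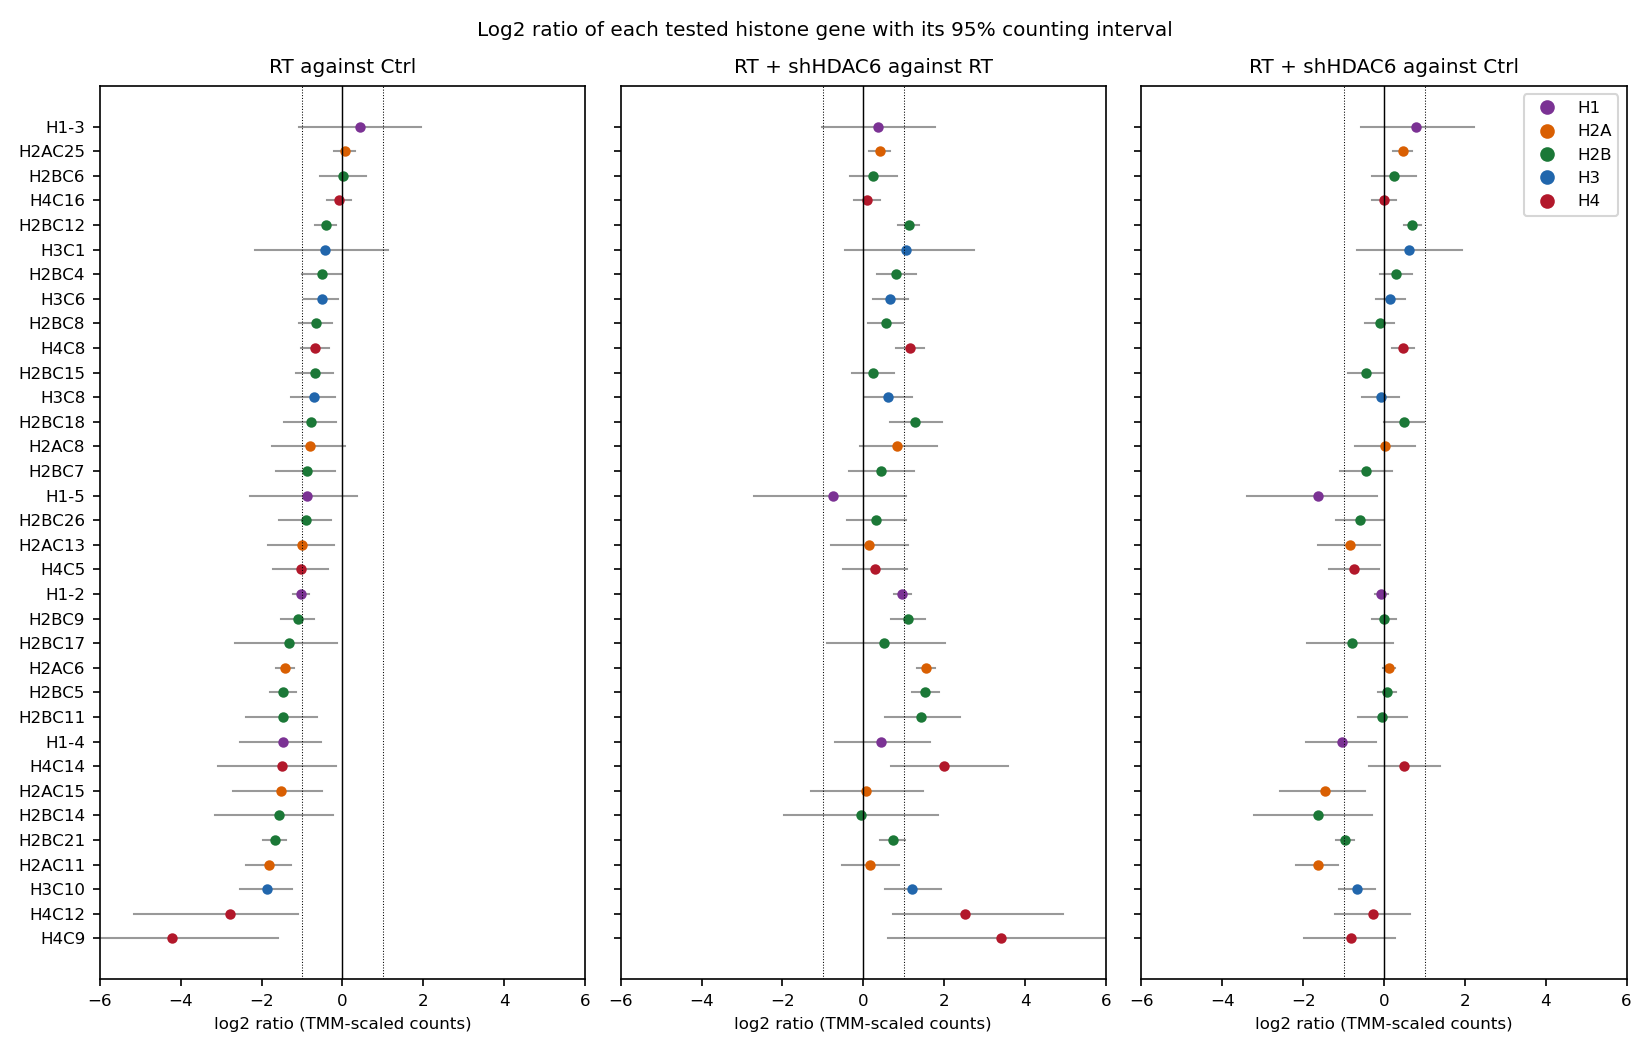
Log2 ratio of TMM-scaled counts (x axis) of the 34 histone genes (rows, ordered by RT against Ctrl), coloured by class; bars are 95% counting intervals, drawn to the edge of the plot where they run past it, and dotted lines mark 2-fold. The points lie left of 0 for 31 genes in the first panel and right of 0 for 32 in the second, while the third panel holds 13 above and 21 below 0.

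The linker histone H1 binds the DNA between nucleosomes. H1-2 (ENSG00000187837) had 794, 287 and 586 counts. Its log2 ratio was -1.03 (-1.23 to -0.84) in RT against Ctrl and 0.97 (0.76 to 1.18) in RT + shHDAC6 against RT, which left it at -0.065 (-0.22 to 0.091) against Ctrl. H1-2 thus held most of the 871, 316 and 622 counts of its class. The other 3 H1 genes compared had few counts. H1-3 had 9, 9 and 12 counts and was the gene with the highest ratio against Ctrl, both in RT (0.44, interval -1.07 to 1.94) and in RT + shHDAC6 (0.79, -0.58 to 2.21). Both intervals include 0. H1-5 had 20, 8 and 5 counts and was lowest in RT + shHDAC6, with a log2 ratio of -0.74 (-2.70 to 1.05) against RT and -1.63 (-3.40 to -0.17) against Ctrl.

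H2A pairs with H2B in the nucleosome. H2AC6 (ENSG00000180573) had the most counts of all 65 genes, namely 823, 227 and 697. RT held 37.3% of the Ctrl level (log2 ratio -1.42, -1.64 to -1.21), and RT + shHDAC6 was 2.94-fold above RT (1.56, 1.34 to 1.78) and near Ctrl (0.13, -0.014 to 0.28). H2AC25, on chromosome 1, had 269, 206 and 285 counts and did not share the dip: its log2 ratio in RT against Ctrl was 0.050 (-0.22 to 0.32), and in RT + shHDAC6 it was 0.41 (0.14 to 0.67) against RT and 0.46 (0.21 to 0.70) against Ctrl. H2AC11 had 161, 34 and 40 counts and stayed low. Its log2 ratio was -1.81 (-2.39 to -1.27) in RT against Ctrl, 0.17 (-0.52 to 0.88) in RT + shHDAC6 against RT and -1.64 (-2.17 to -1.13) in RT + shHDAC6 against Ctrl, the lowest of the 34. H2AC15 had 39, 10 and 11 counts and the same order, with 0.075 (-1.30 to 1.47) in RT + shHDAC6 against RT. The 3 H2A genes with the most counts therefore had 3 different courses.

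H2B, the partner of H2A, had the largest share of the histone counts, with 41.0%, 39.5% and 40.2%. H2BC21, on chromosome 1, had 585, 135 and 233 counts. Its log2 ratio was -1.68 (-1.96 to -1.41) in RT against Ctrl and 0.73 (0.41 to 1.04) in RT + shHDAC6 against RT, and it remained at -0.96 (-1.18 to -0.73) against Ctrl. H2BC5 had 372, 100 and 302 counts, with log2 ratios of -1.46 (-1.79 to -1.14) and 1.53 (1.20 to 1.87), and lay at the Ctrl level in RT + shHDAC6 (0.072, -0.15 to 0.30). H2BC12 had 343, 190 and 431 counts. It was lower in RT (-0.42, -0.68 to -0.16), higher in RT + shHDAC6 against RT (1.12, 0.87 to 1.37), and also above Ctrl (0.70, 0.49 to 0.91). H2BC12 was thus highest in RT + shHDAC6, H2BC21 was highest in Ctrl, and H2BC5 differed between these libraries by less than the counting error.

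Among the other H2B genes with a mean of at least 100 counts, H2BC9 had 206, 71 and 159 counts, with log2 ratios of -1.10 (-1.51 to -0.71) in RT against Ctrl and 1.10 (0.69 to 1.53) in RT + shHDAC6 against RT. H2BC8 had 160, 75 and 115 counts, with -0.66 (-1.07 to -0.25) and 0.55 (0.12 to 0.99). Both were back within the counting error of Ctrl in RT + shHDAC6. H2BC6 had 63, 47 and 58 counts and showed no dip (0.012, -0.56 to 0.58). H2BC14 had 24, 6 and 6 counts, with a log2 ratio of -0.062 (-1.97 to 1.84) in RT + shHDAC6 against RT and -1.63 (-3.21 to -0.30) against Ctrl.

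H3 and H4 form the tetramer at the centre of the nucleosome. H3C6 had 143, 74 and 123 counts, with log2 ratios of -0.52 (-0.94 to -0.10) in RT against Ctrl and 0.67 (0.24 to 1.11) in RT + shHDAC6 against RT. H3C10 had 129, 26 and 63 counts and was the lowest H3 gene in RT (-1.88, -2.54 to -1.26). It was higher in RT + shHDAC6 against RT (1.21, 0.53 to 1.93) but remained below Ctrl (-0.66, -1.12 to -0.22). H3C1 had 11, 6 and 13 counts, with a log2 ratio in RT + shHDAC6 against Ctrl of 0.61 (-0.66 to 1.92).

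H4C16, the single histone gene on chromosome 12, had 232, 161 and 179 counts and showed no dip beyond the counting error, with log2 ratios of -0.092 (-0.39 to 0.20) and 0.091 (-0.22 to 0.41). H4C8 had 226, 104 and 240 counts, with -0.68 (-1.03 to -0.34) and 1.14 (0.81 to 1.49). It was above Ctrl in RT + shHDAC6 (0.46, 0.19 to 0.73). H4C9 had 25, 1 and 11 counts, the widest differences of the 34: -4.21 in RT against Ctrl (-9.57 to -1.60) and 3.40 in RT + shHDAC6 against RT (0.61 to 8.83). Both rest on the single count in RT. H4C12 had 28, 3 and 18 counts (-2.79, -5.15 to -1.09, and 2.52, 0.75 to 4.93). H4C14 had 23, 6 and 25 counts (-1.503, -3.09 to -0.17, and 2.00, 0.68 to 3.57). H4C12 and H4C14 are uncertain as single genes, since 92.0% and 100% of their 75-base windows also occur in another gene of the family.

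By class, the summed counts in RT against Ctrl had log2 ratios of -1.03 (-1.22 to -0.84) for H1, -0.98 (-1.12 to -0.83) for H2A, -0.99 (-1.11 to -0.88) for H2B and -0.98 (-1.26 to -0.71) for H3. The H4 sum was -0.58 (-0.78 to -0.39), and H4C16 held 232 of its 630 counts in Ctrl and 161 of its 311 in RT. The class sums in RT + shHDAC6 against RT lay between 0.69 (0.49 to 0.90, H4) and 1.004 (0.85 to 1.16, H2A). The interval of every class sum included 0 in RT + shHDAC6 against Ctrl. RT was thus the low library in each of the 5 class sums.

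The genes lie in 4 groups: 53 on chromosome 6, 9 on chromosome 1 near 150 Mb, 2 farther along chromosome 1 (H2AC25 and H2BC26) and 1 on chromosome 12. The groups did not have the same course. In RT against Ctrl the sum was -1.02 (-1.10 to -0.93) for chromosome 6 and -1.50 (-1.74 to -1.26) for chromosome 1 near 150 Mb, where H2BC21 lies. It was -0.11 (-0.36 to 0.13) for H2AC25 with H2BC26 and, as given above, -0.092 for H4C16. In RT + shHDAC6 against Ctrl the chromosome 6 sum lay at 0.013 (-0.052 to 0.078) and that near 150 Mb of chromosome 1 at -0.64 (-0.82 to -0.45). The latter sum was mostly H2BC21, which held 585, 135 and 233 of its 700, 183 and 348 counts. Of the 3 genes compared there, H2BC21 was lower than Ctrl in RT + shHDAC6. H2BC18 (0.49, 0.0040 to 0.98) and H4C14 (0.49, -0.38 to 1.38) were higher.

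The chromosome 6 genes are split by their widest gap, 840.3 kb, into a first block of 32 genes (25.7 to 26.3 Mb, GRCh38) and a second block of 21 (27.1 to 27.9 Mb). This grouping was made after the values of single genes had been seen. Both sums were low in RT, with log2 ratios against Ctrl of -1.01 (-1.11 to -0.92) and -1.04 (-1.21 to -0.87). Against Ctrl, 9 of the 16 genes compared of the first block were higher and 7 lower in RT + shHDAC6 (median 0.052), whereas 1 of 12 in the second block was higher and 11 lower (median -0.80). The exception was H2BC12, which held 343, 190 and 431 of the 1090, 393 and 773 counts of its block. With it, the sum of the second block was at -0.12 (-0.26 to 0.012) in RT + shHDAC6 against Ctrl. Without it, the sum was 747, 203 and 342 counts and the log2 ratio -0.75 (-0.94 to -0.57), and that in RT + shHDAC6 against RT was 0.69 (0.44 to 0.95) in place of 0.91. Of the windows of H2BC12, 39.0% are shared with other genes of the family. Over the 10 genes of the second block with no shared window the sum was 386, 80 and 136 counts and the log2 ratio against Ctrl -1.13 (-1.42 to -0.85). The difference between the blocks was not tested, and genes of 10 to under 100 counts, which make up most of the second block, had a median of -0.25 over the whole table in that comparison.

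The 20 other protein-coding genes with a row in this stretch of chromosome 6, among them butyrophilins and zinc finger genes, did not have the course of the histone genes. Their sum was 16623, 13819 and 12813 counts, with log2 ratios of 0.17 (0.14 to 0.20) in RT against Ctrl and -0.17 (-0.21 to -0.14) in RT + shHDAC6 against RT. Of the 14 with a mean of at least 10 counts, 1 was at least 2-fold lower in RT, and it was PRSS16, a thymus protease gene with 96, 33 and 34 counts.

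**Figure D3:**
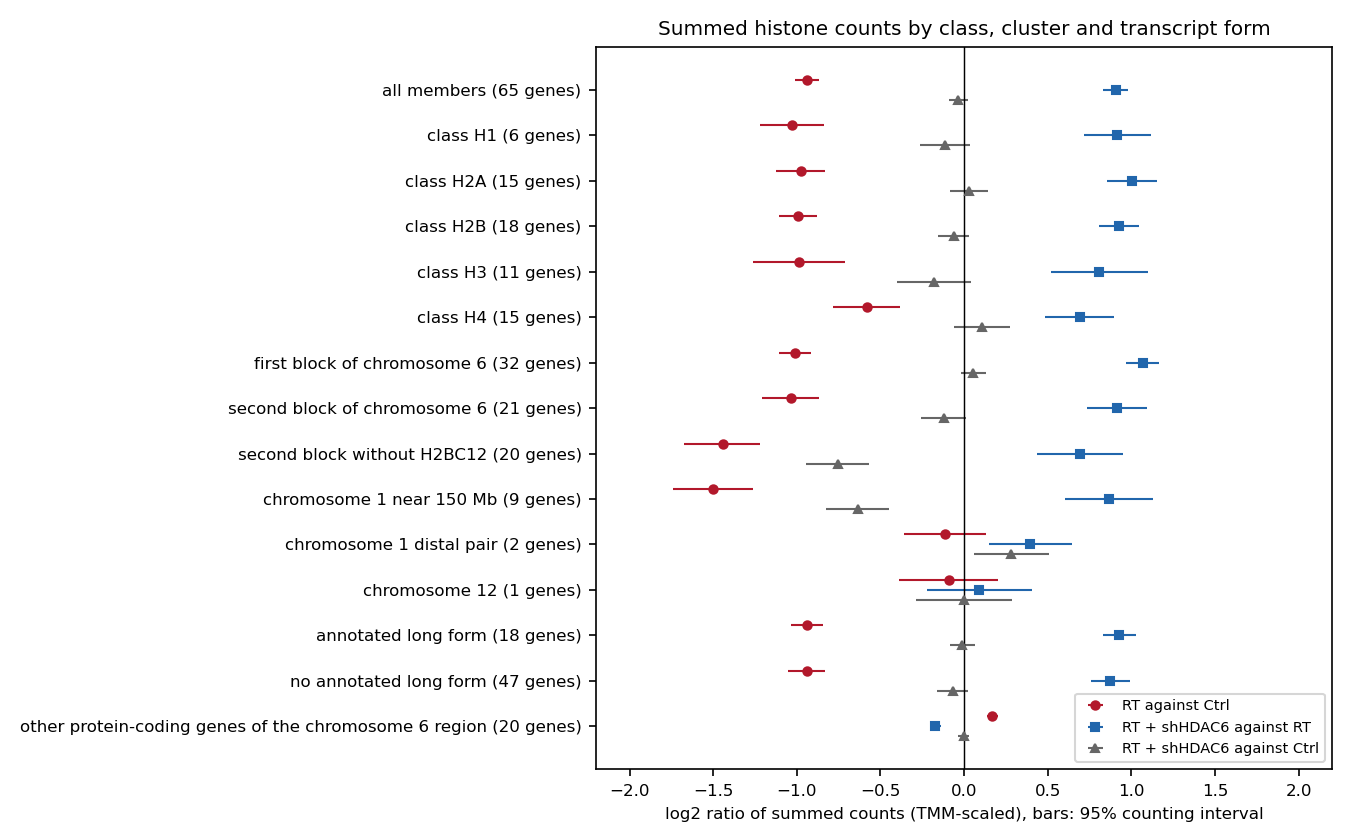
Log2 ratio of summed TMM-scaled counts (x axis) for all 65 histone genes and for subsets by class, genomic group and annotated transcript form, and for the other protein-coding genes of the chromosome 6 region; bars are 95% counting intervals and symbols mark the 3 comparisons. Class sums lie near -1 in RT against Ctrl except H4 (-0.58), and the sums of the distal pair on chromosome 1 and of H4C16 on chromosome 12 lie near 0.

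Many H2A and H2B genes are transcribed away from each other from 1 stretch of shared promoter. H2AC6 and H2BC4 start 246 bases apart. H2BC4 had 112, 58 and 107 counts beside 823, 227 and 697 for H2AC6, with log2 ratios of -0.51 (-0.997 to -0.044) and 0.82 (0.35 to 1.31). H2BC11 and H2AC11 start 248 bases apart and had the same order of libraries, but differed in extent in RT + shHDAC6. H2BC11 had 56, 15 and 42 counts and returned to the Ctrl level there (-0.042, -0.65 to 0.56), whereas H2AC11 stayed at -1.64. H2AC25 and H2BC26 start 230 bases apart. H2BC26 had 76, 30 and 39 counts and was lower in RT (-0.91, -1.57 to -0.28), unlike H2AC25. The other pairs with both genes compared were H2BC8 with H2AC8 and H2AC15 with H2BC15. Their log2 ratios in RT against Ctrl were -0.66 and -0.81, and -1.53 and -0.69. In RT + shHDAC6 against RT they were 0.55 and 0.84, and 0.075 and 0.24. Among these pairs RT was the lowest library for both genes, except in H2AC25 with H2BC26.

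The 150 bases before the start site are shown for 4 genes of different course, from RefSeq (GRCh38.p14) in the sense of each gene. H2AC6 and H1-2 dipped in RT and returned, H2BC12 was highest in RT + shHDAC6, and H2AC11 stayed low. Capitals mark matches on either strand of the octamer (ATTTGCAT), of the CCAAT box and of the TATA box (TATAAA). In H1-2 they also mark the H1 box (AAACACA). The last capitals of H2AC11 hold the TATA letters on both strands, overlapping.
H2AC6, chr6:26124022-26124171, plus strand: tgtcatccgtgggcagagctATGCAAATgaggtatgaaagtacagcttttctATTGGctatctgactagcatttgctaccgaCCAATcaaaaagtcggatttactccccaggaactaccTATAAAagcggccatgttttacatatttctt
H1-2, chr6:26056471-26056620, minus strand: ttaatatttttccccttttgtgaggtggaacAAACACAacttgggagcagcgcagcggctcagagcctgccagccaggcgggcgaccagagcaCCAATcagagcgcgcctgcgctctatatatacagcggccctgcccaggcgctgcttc
H2BC12, chr6:27146859-27147008, minus strand: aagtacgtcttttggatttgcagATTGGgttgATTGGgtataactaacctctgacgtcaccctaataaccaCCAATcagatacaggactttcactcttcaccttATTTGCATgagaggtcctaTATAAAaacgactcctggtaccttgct
H2AC11, chr6:27132893-27133042, plus strand: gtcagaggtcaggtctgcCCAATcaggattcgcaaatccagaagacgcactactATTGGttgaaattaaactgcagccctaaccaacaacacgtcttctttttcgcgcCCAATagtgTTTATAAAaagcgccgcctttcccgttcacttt

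A RefSeq promoter of 300 bases (250 before to 50 after the start) was matched for 60 of the 65 genes. The octamer was found in 11 of 14 H2A and 14 of 18 H2B promoters, in 1 of 9 of H3 and in 0 of H1 and H4, and in 1.77% of all 35116 promoters. The H3 match is in the stretch given for H3C4, which is the same as that given for H2AC7 and is counted in both classes. The promoters of H2A and H2B genes that start close together on opposite strands overlap, so 1 site can likewise count in both. The octamer of H2AC6, for example, is the same site as that of H2BC4. The H2A and H2B counts are therefore not independent. CCAAT was found in every H1, H2A, H2B and H3 promoter and in 3 of 13 of H4, against 34.6% of all promoters. The TATA letters were found in 65% of the histone promoters and 11.5% of all. The H1 box was found in all 6 H1 promoters and in 5.64% of all. A match of letters is a description and not a bound site. The classes thus differed in these letters. Their sums lay between 0.69 (H4) and 1.004 (H2A) in RT + shHDAC6 against RT. In RT against Ctrl the class sums lay between -1.03 (H1) and -0.58 (H4). A link between the letters and the sums was not tested.

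Since a polyadenylated long form would be kept by poly(A) selection, the genes were split by their annotation. A gene had a long form if a transcript of it has several exons or ends more than 200 bases after the stop codon. Of the 65 genes 18 have one, among them 7 of the 11 genes with a mean of at least 100 counts. Their sum was 3324, 1282 and 2545 counts, with log2 ratios of -0.94 (-1.03 to -0.85) in RT against Ctrl and 0.93 (0.83 to 1.03) in RT + shHDAC6 against RT. The 47 genes without one had 2312, 890 and 1703 counts, with -0.94 (-1.06 to -0.83) and 0.87 (0.76 to 0.99). The intervals of the 2 sets overlapped in both comparisons. Over the 42 genes with no 75-base window in common with another gene of the family the ratios were -0.89 (-0.98 to -0.80) and 0.88 (0.78 to 0.97). Over the 54 genes that overlap no other gene's exons they were -0.91 (-0.99 to -0.83) and 0.79 (0.71 to 0.88).

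Levels of different genes were compared per exon length, as RPKM (reads per kilobase of exon, scaled to the library total). H1-2 was at 26.0, 10.9 and 22.6, H2BC12 at 16.6, 10.7 and 24.6, and H2AC6 at 11.8, 3.78 and 11.8. The length is the annotated union of exons, so the level of H2AC6 and other genes with a long form is understated where that form is not made. Variant histones, whose mRNAs carry a poly(A) tail and are mostly made outside S phase as well, were higher. The 11 H3C genes with a row together reached 10.3, 4.32 and 8.12 RPKM, whereas H3-3A, H3-3B (both H3.3) and the centromeric CENPA together reached 75.2, 60.6 and 63.6. The H2AC genes summed to 30.9, 12.4 and 23.6 beside 225.4, 225.3 and 216.6 for the H2A variants. The replication-dependent genes with a row therefore held 12.1%, 5.22% and 9.84% of the measured H2A level and 12.02%, 6.66% and 11.3% of the measured H3 level. These shares leave out H2AC18, H2AC19, H3C2 and H3C3. Poly(A) selection, if it was used, would keep the variant mRNAs and lose mRNAs without a tail. The shares therefore need not hold for all histone mRNA in the cells.

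Of the 11 variant histone genes, 9 were below 0 in RT against Ctrl, where 52.0% of all genes were. In RT + shHDAC6 against RT 4 were above 0, where 49.1% of all genes were. The median log2 ratio of the 11 was -0.091 in RT against Ctrl and -0.032 in RT + shHDAC6 against RT. None reached 2-fold in any comparison. Over all genes 6.36% were at least 2-fold lower and 4.62% higher in RT against Ctrl, so this does not set the 11 apart. H3-3B had 9640, 7031 and 7481 counts (-0.020 and 0.027). H2AX, whose mRNA can end either at a stem-loop or with a poly(A) tail, had 7145, 7262 and 6772 counts (0.46 and -0.16). H2AZ1 had 6197, 4489 and 4672 counts, H2AZ2 5793, 3216 and 2909, H3-3A 3356, 2100 and 2059, CENPA 1359, 944 and 964, H2AJ 2263, 1328 and 1123, and MACROH2A1 11770, 11924 and 10209. The linker variant H1-10 had 4060, 2030 and 2198 counts and was lower in RT (-0.56 and 0.053). MACROH2A2 had 95, 70 and 144 counts and was near 2-fold higher in RT + shHDAC6 against RT (0.98).

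As a group, the factors that make and remove replication-dependent histone mRNA were not low in RT. Of 29 such genes, 0 were at least 2-fold higher or lower in RT against Ctrl (median 0.13) or in RT + shHDAC6 against RT (median 0.0075). SLBP had 3327, 2471 and 2560 counts, with log2 ratios of 0.0061 and -0.011. NPAT, the coactivator of histone gene transcription, had 2173, 2138 and 2139 counts (0.41 and -0.061). CCNE2, a cyclin of the G1 to S transition, was the single gene of the list at 2-fold in any comparison, with 789, 852 and 1226 counts and a log2 ratio of 1.01 in RT + shHDAC6 against Ctrl. Single genes of the list dipped in RT by less than 2-fold: the exonuclease XRN1 had 5114, 2671 and 4067 counts (-0.50 and 0.54), and POU2F1, which binds the octamer, had 3630, 2033 and 2557 (-0.40 and 0.27). Both were picked out after their values had been seen. Among 22 histone chaperone and import genes the medians were 0.12 and 0.024. TONSL, a reader of newly deposited H4, had 4311, 7120 and 5628 counts and was higher in RT (1.16), as was the importin IPO4 on 7, 16 and 10 counts (1.63).

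The 34 S phase genes, among them the replicative helicase and polymerase subunits, had a median log2 ratio of 0.43 in RT against Ctrl and -0.014 in RT + shHDAC6 against RT. In the first comparison 31 of the 34 were above 0, where 48.0% of all genes were, and 0 reached 2-fold. Most S phase genes thus lay on the other side of 0 from the histone genes. The 20 G2 and M phase genes had medians of -0.090 and -0.050 and 0 at 2-fold in either. Genes of both lists had a mean of at least 100 counts, where few genes reached 2-fold, so these 0 counts do not set them apart. Cell cycle phases were not measured in these libraries, and their part in the histone values was not tested.

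**Figure D4:**
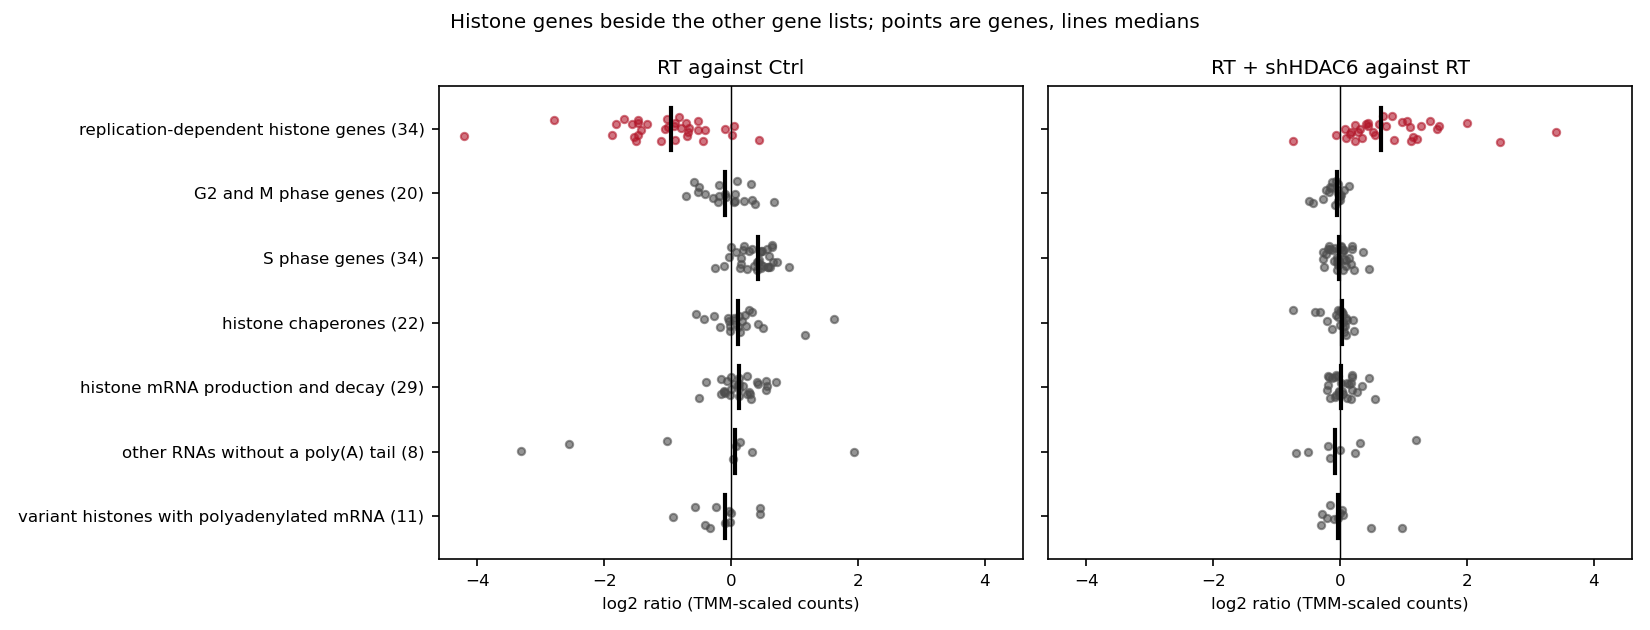
Log2 ratio of TMM-scaled counts (x axis) of single genes with a mean of at least 10 counts (points) in RT against Ctrl and RT + shHDAC6 against RT, for the replication-dependent histone genes and 6 other lists (rows, with the number of genes); thick lines are medians. The histone genes have medians of -0.95 and 0.65, whereas the medians of the factors for histone mRNA are 0.13 and 0.0075 and those of the S phase genes 0.43 and -0.014.

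Other RNAs that end without a poly(A) tail were set beside the histone genes, and 8 of 27 had a mean of at least 10 counts. They had no common course. The nuclear paraspeckle RNA NEAT1, whose long form lacks a poly(A) tail while its short form has one, had 26067, 9568 and 22956 counts, with log2 ratios of -1.01 and 1.20. It was low in RT like the histone sum, but highest in RT + shHDAC6 (0.19 against Ctrl, 0.16 to 0.22). MALAT1, a nuclear RNA with a triple-helix end, had 90333, 83895 and 78737 counts (0.33 and -0.15). The signal recognition particle RNAs RN7SL2 (1459, 109 and 141 counts, -3.31 and 0.31) and RN7SL3 (183, 23 and 21 counts, -2.56 and -0.19) were low in both irradiated libraries and did not return. SCARNA6 had 6, 17 and 11 counts. By class, small nuclear RNA genes summed to log2 ratios of -0.032 in RT against Ctrl, and small nucleolar RNA genes to 0.46. The part of poly(A) selection in the histone values was not tested.

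Markers of other cell types were low but not all absent. The blood markers summed to 4.11, 2.61 and 2.54 CPM, with 4, 3 and 3 of 4 above 3 counts. The endothelial markers PECAM1, CDH5 and VWF were above 3 counts in each library and summed to 25.1, 13.5 and 19.0 CPM, the same order of libraries as the histone sum. The liver markers ALB and APOA1 did not pass 6 counts. The part of these signals in the histone values was not tested.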

How the data were processed

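RNA was measured in 3 libraries of T24 cells. The authors used cutadapt for trimming, STAR for alignment to GRCh38 (version 2.6.1a in the submitters' processing notes, another version in the methods) and featureCounts with GENCODE genes for counting; the deposited values are whole-number counts per gene, and strand use and the treatment of reads with several hits are not stated. The labels and the methods name different library kits. Of 58381 rows, 57799 matched a symbol. Counts were scaled by TMM (edgeR 4.0.16, R 4.3.3) over the 3 libraries and compared as log2 ratios, a count of 0 being set to 0.5, with 95% Clopper-Pearson intervals (scipy 1.17.1). The study's NOISeq calls, which simulate replicates from each library, were not repeated, since there was 1 library per condition and no test was made. Genes with a mean of at least 10 counts over the 3 libraries were compared one by one, and those at least 2-fold apart were called. Gene models, exon lengths and stem-loops came from GENCODE release 44 and GRCh38. The ratios, intervals and calls were tested on simulated data.

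The histone genes and the gene lists were chosen with earlier results of these data known. Named genes are those with a mean of at least 100 counts, the one with the most counts in each class, the 3 highest and 3 lowest ratios in each comparison, SLBP, NPAT, HDAC6, the variant histones and up to 3 called genes a list. The values of 1 gene that this rule names are not reported here. The pairs, blocks and neighbours on chromosome 6 and the split by count level were added after values had been seen. Alternatives were library totals, median-of-ratios (DESeq2 1.42.0) and upper-quartile scaling, other count minimums, folds of 1.5 and 3, another value for 0, and leaving out subsets of genes.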

Additional observations from a re-analysis of the deposited data

How the results depend on the processing

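The direction of the histone sum and median in RT against Ctrl and in RT + shHDAC6 against RT was the same under all alternatives run. Library totals in place of TMM shift every ratio by -0.22, 0.084 and -0.13 (RT against Ctrl, RT + shHDAC6 against RT, RT + shHDAC6 against Ctrl); the histone sums became -1.16, 0.99 and -0.17 and the medians -1.17, 0.73 and -0.21. Median-of-ratios scaling turned the sum in RT + shHDAC6 against Ctrl to 0.014. Without H2AC6, the gene with the most counts, the sum in RT + shHDAC6 against RT was 0.81. With a minimum mean of 50 counts (18 genes) the medians were -0.70, 0.77 and, turned in sign, 0.036, and that in RT + shHDAC6 against RT was also 0.77 with a minimum of 1 count and with none.

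Counts of genes moved with the scaling and, by construction, with the threshold. With library totals, median of ratios and upper quartile in this order, the 16 lower in RT against Ctrl became 22, 14 and 17. The 12 higher in RT + shHDAC6 against RT became 13, 12 and 12. The 5 lower in RT + shHDAC6 against Ctrl became 6, 4 and 5. In RT against Ctrl, 16 lower genes became 26 at 1.5-fold, 5 at 3-fold, 27 with a minimum mean of 1 count, 7 with 50 and 28 with none, and 0 higher became 1 (minimum of 1) and 2 (none). In RT + shHDAC6 against RT, 12 higher became 18 at 1.5-fold, 3 at 3-fold, 22 with a minimum of 1 or none and 7 with 50. In the same comparison 0 lower became 1 at 1.5-fold, 5 with a minimum of 1 and 6 with none. In RT + shHDAC6 against Ctrl, 0 higher became 3 at 1.5-fold and 5 with a minimum of 1 or none, and 5 lower became 12 at 1.5-fold, 3 at 3-fold, 10 with a minimum of 1, 1 with 50 and 11 with none. No paired analysis was possible because there was 1 library per condition, and for the same reason no replicate could be left out. Single ratios are not given for the 31 genes with a mean below 10 counts.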
